A study of Mus musculus with 36 samples.

Results

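The cytochrome P450 family 4 genes of mouse liver are described here across 3 groups of mice. A probe was taken as a member when its gene name in the array files, or the current symbol of its accession, was Cyp4a10, Cyp4a14, BC013476 (now Cyp4a31), Cyp4f13, Cyp4f14, Cyp4f15, Cyp4v3 or Cyp4b1. This gave 8 genes with 12 probes, out of 19750 named genes and 41174 probes on the array. The mice were adult males, labelled C57BL/6J, 12 per group and 1 array per mouse. All of them were adapted for 3 weeks to a mild high-fat diet with 30% of its energy as fat. The t=0 mice were killed at that point, the HF mice stayed on the diet for 12 weeks more, and the HF-Q mice received it for those 12 weeks with 0.33% (w/w) quercetin, a plant flavonol. All were fasted for at least 2 hours before section. HF against HF-Q therefore differs in quercetin alone, whereas HF or HF-Q against t=0 also differs in 12 weeks of age and diet, which cannot be told apart. The arrays were 2-colour, with the liver RNA of a mouse in Cy5 and a common pool of all livers in Cy3. Values are log2 ratios of mouse over pool after loess normalization unless stated otherwise, and a value of 0 is the level of the pool.

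Family 4 enzymes hydroxylate the far, omega end of fatty acids and related lipids in the endoplasmic reticulum, with electrons passed on from P450 oxidoreductase. The resulting omega-hydroxy acids are oxidised further to dicarboxylic acids, which peroxisomes shorten. In mouse liver the Cyp4a genes are textbook targets of the fatty acid receptor PPAR-alpha, while the Cyp4f enzymes are best known for inactivating leukotriene B4 and for acting on longer chains.

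The livers showed the transcripts of hepatocytes, since 7 of 8 listed hepatocyte markers were measured and all 7 were well above background on all 36 arrays. Of adipocyte markers, 1 of 5 was expressed. The HF-Q replicate 2 array stood apart from the rest, with 96.7% of probes well above background in Cy5 against 56.4 to 67.4% on the other 35 arrays. HF-Q replicates 4, 7 and 8 had narrower ratios over all probes after background correction, with median absolute log2 ratios of 0.00824 to 0.027 against 0.0637 to 0.131 on the other 33 arrays. Results are therefore also given without these arrays. Every slide held mice of all 3 groups. The titles number the samples as replicates of a group. Each was taken as a separate mouse, so the p-values measure the spread between mice.

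The 12 probes differed in how much they could show. Cyp4a10 had 4 probes. Its brightest, A_52_P257774 (mm8 chr4:115030595-115031083, plus strand), lay at 94.1 times background in Cy5, followed by A_52_P340136 at 74.0 times and A_52_P6588 at 7.24 times. The fourth, A_52_P988832, carries an older name of Cyp4a10 in the files, but its position (chr4:115068669-115068728, minus strand) lies between those of the Cyp4a31 probes. At 3.00 times background in Cy5 and 1.96 times in Cy3 it did not pass the filter on dim probes in any comparison. Cyp4a14 had the single probe A_51_P238576 (chr4:114984241-114984300, minus strand, 443 times background). Cyp4a31 had A_51_P254895 (chr4:115076893-115076952, plus strand, 349 times) and the dim A_52_P218449 at 2.78 times. The file lists 2 RefSeq transcripts for A_51_P254895, that of Cyp4a31 and that of Cyp4a10, so its signal may hold both genes.

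The remaining members had 1 probe each. On chromosome 17 lay Cyp4f15 (chr17:32442453-32442512, plus strand), Cyp4f14 (chr17:32643687-32643746, minus strand) and Cyp4f13 (chr17:32663976-32664123, minus strand), on chromosome 8 Cyp4v3 (chr8:46804858-46804917, minus strand), and on chromosome 4 Cyp4b1 (chr4:115122854-115122913, minus strand). Their Cy5 signals were 364, 1020, 67.8, 413 and 95.1 times background. No member probe was saturated on any array. The files give no exon or intron for these mm8 positions.

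Cyp4a14, an omega-hydroxylase of medium and long chains, spread widely within each group. In the t=0 mice its log2 ratio ran from -4.57 in mouse 6 over a median of -1.46 to -0.16 in mouse 5. In the HF mice it ran from -3.21 over a median of -1.96 to -0.35 in mouse 4. In the HF-Q mice it ran from -0.88 over a median of 0.69 to 2.74 in mouse 4. The HF-Q mice were the high group, and their lowest members overlapped the highest t=0 and HF mice. On the authors' processed log2 scale the means were 12.62 ± 1.38 (t=0), 12.52 ± 0.75 (HF) and 15.26 ± 1.19 (HF-Q) (SD, n = 12 each).

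Cyp4a10, its neighbour with the same kind of activity, ran from -1.66 in mouse 10 over a median of -0.54 to -0.02 in mouse 5 at t=0. The HF mice ran from -1.57 in mouse 10 over -0.99 to 0.03 in mouse 4. The HF-Q mice ran from -0.67 in mouse 10 over 0.17 to 1.58 in mouse 4. The HF-Q median thus lay above the highest mouse of both other groups, while HF-Q mouse 10 lay inside their ranges. The processed log2 means were 11.70 ± 0.57, 11.40 ± 0.53 and 12.71 ± 0.66 in t=0, HF and HF-Q (SD, n = 12 each).

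Cyp4a31, a close relative of Cyp4a10, had the same lowest and highest mouse as Cyp4a10 in each group. Its log2 ratio ran from -2.11 over -0.63 to 0.05 at t=0. The HF mice ran from -1.73 over -0.96 to 0.22. The HF-Q mice ran from -0.53 over 0.30 to 2.20. The HF-Q median was again above the highest t=0 and HF mouse, and the groups overlapped. The processed log2 means were 13.28 ± 0.73, 13.12 ± 0.67 and 14.69 ± 0.81 (SD, n = 12 each).

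**Figure D1:**
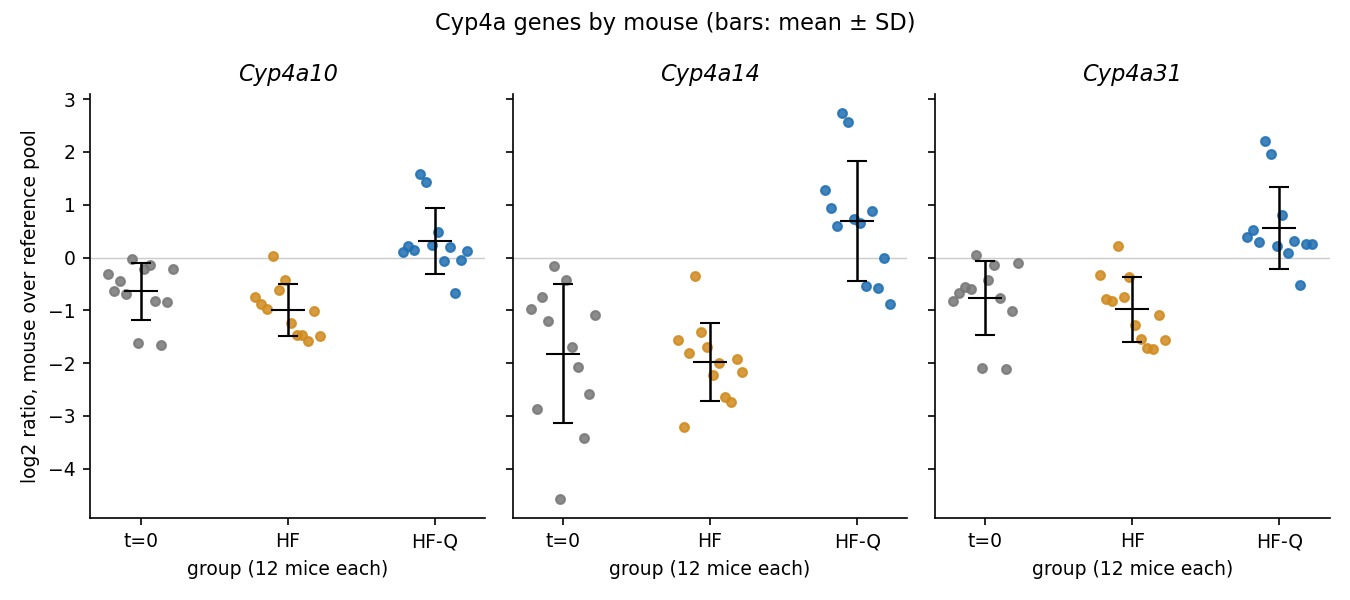
Log2 ratio of mouse over reference pool for the brightest probe of Cyp4a10, Cyp4a14 and Cyp4a31 in the t=0, HF and HF-Q groups, 1 point per mouse in order of mouse number, with bars for mean ± SD. The HF-Q points sit highest in each panel, 2 of them (mice 4 and 5) apart from the other 10, and the t=0 and HF points overlap over most of their range.

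Quercetin feeding was compared with the control diet by limma over all expressed probes, with Benjamini-Hochberg adjustment. Of the 8 members 3 were called, all higher in HF-Q, where 3.29% of all genes tested were called in either direction and 2.03% higher. The 3 were Cyp4a14, Cyp4a31 and Cyp4a10, with folds of 6.40, 2.92 and 2.47. The probe read for Cyp4a31 also lists the Cyp4a10 transcript, so these 2 genes may share signal, here and below. The dim A_52_P218449, which lists the Cyp4a31 transcript alone, gave a fold of 1.46. Their 95% intervals on the log2 scale were 1.94 to 3.42, 1.00 to 2.09 and 0.87 to 1.74. All 12 HF-Q mice lay above the HF median for each of the 3 genes. In bulk liver, fewer cells of a type and less RNA per cell cannot be told apart, here and below.

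Among the other probes of these genes, A_52_P6588 and A_52_P340136 of Cyp4a10 gave log2 fold changes of 0.99 (SE 0.17) and 0.49 (SE 0.10), and the dim A_52_P218449 of Cyp4a31 gave 0.54 (SE 0.11). All 3 were called by limma (adjusted p = 0.0015, 0.00425 and 0.00501), where 3.41% of all probes were. A_52_P218449 passed the filter on dim probes in this comparison alone, with Cy3 at 1.99 times background. It was well above background in 9, 11 and 12 mice of t=0, HF and HF-Q. Its call thus rests on a probe at the edge of the filter. The probes of Cyp4a10 thus shared a direction and differed in size, from 0.49 to 1.30.

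The other 5 members were not called in HF-Q against HF. Their log2 fold changes were 0.12 for Cyp4f15, 0.06 for Cyp4f13, -0.04 for Cyp4f14, -0.08 for Cyp4v3 and 0.01 for Cyp4b1, with limma adjusted p-values from 0.215 to 0.944. The 95% intervals bound how large a difference could be. They were 0.02 to 0.23 for Cyp4f15, -0.04 to 0.17 for Cyp4f13, -0.22 to 0.15 for Cyp4f14, -0.24 to 0.08 for Cyp4v3 and -0.11 to 0.13 for Cyp4b1. The median of the 8 members was 0.09 and that of all genes -0.01.

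Without HF-Q replicates 2, 4, 7 and 8 the same 3 genes were called, with log2 fold changes of 2.56 for Cyp4a14, 1.37 for Cyp4a31 and 1.18 for Cyp4a10. Loess followed by scaling of the arrays to equal spread called none of the 8 members (81 of 18372 probes in all). That scaling multiplied the ratios of HF-Q replicates 4, 7 and 8 by 3.04 to 9.98 and those of the other arrays by 0.629 to 1.29, and with those 3 arrays left out it called the same 3 genes.

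The slides gave the same picture. In all 9 slides the HF-Q mice exceeded the HF mice for Cyp4a14, by 0.65 to 4.67 with a median of 2.63 on the log2 scale. For Cyp4a10 the difference was 0.02 to 2.55 (median 1.43) and for Cyp4a31 0.05 to 2.99 (median 1.47), positive in 9 of 9 slides.

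**Figure D2:**
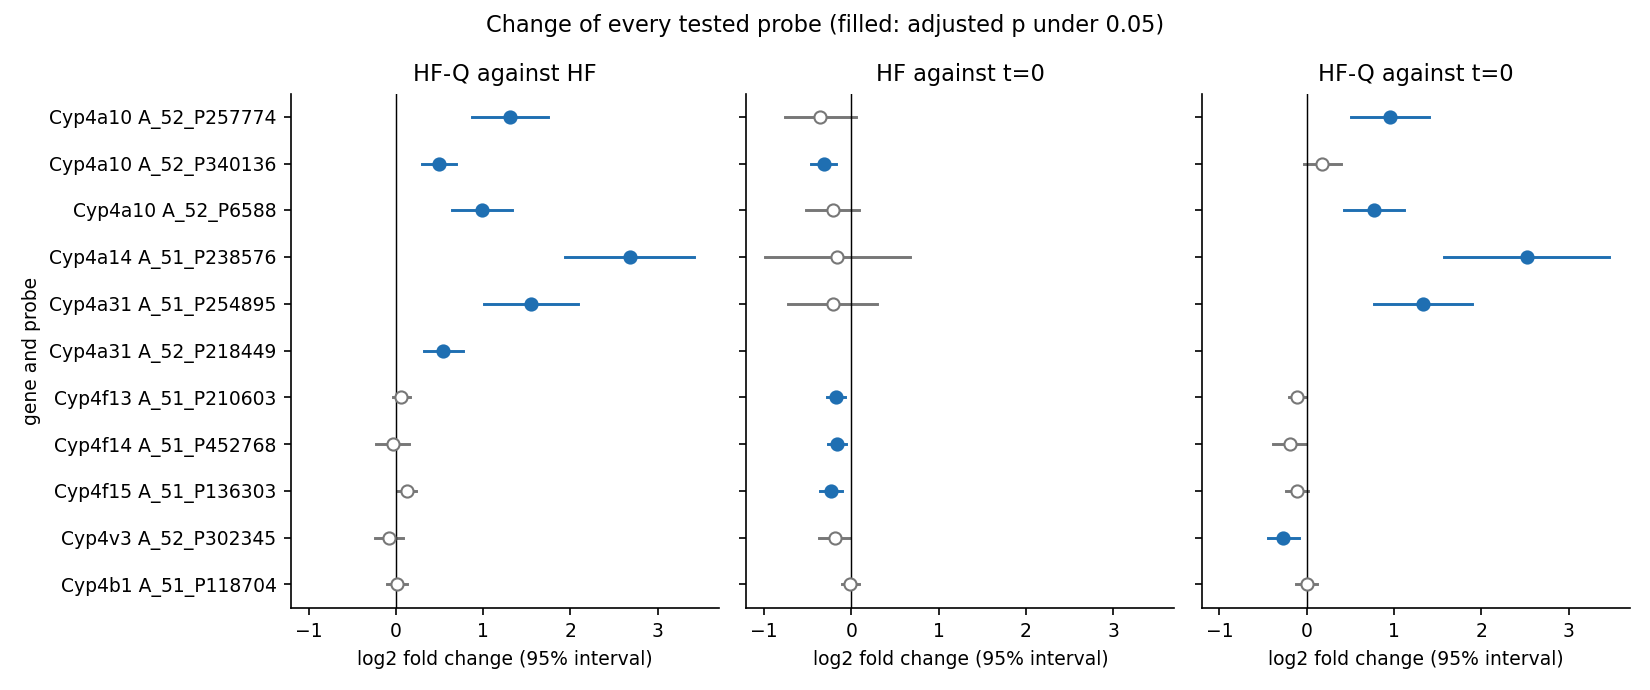
Log2 fold change with its 95% interval for every tested member probe (rows) in HF-Q against HF, HF against t=0 and HF-Q against t=0 (panels), filled where the adjusted p in limma was under 0.05. The Cyp4a probes sit to the right in both HF-Q panels, from 0.18 to 2.68, and the 3 Cyp4f probes sit slightly left of 0 in HF against t=0, from -0.23 to -0.16.

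The t=0 livers show where the Cyp4a levels stood before the 12 weeks. HF-Q against t=0 shares its HF-Q mice with the comparison above, so the 2 are not independent. Of the 8 members 4 were called, 3 higher and 1 lower, where 17.3% of all genes were called, 9.07% higher and 8.25% lower. Cyp4a14 was 5.73-fold higher in HF-Q than at t=0 (log2 fold change 2.52, SE 0.46, limma adjusted p = 0.000608). This was the largest log2 fold change, in size, of the 18360 probes tested. All 12 HF-Q mice exceeded the t=0 median.

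Cyp4a31 was 2.52-fold higher than at t=0 (SE 0.28 on the log2 scale, limma adjusted p = 0.00174, 12 of 12 mice above the t=0 median). Cyp4a10 was 1.93-fold higher (SE 0.22, adjusted p = 0.00403, 11 of 12 mice). Its probe A_52_P6588 gave 0.77 on the log2 scale (adjusted p = 0.00244) and A_52_P340136 gave 0.18 (95% interval -0.03 to 0.39, adjusted p = 0.234), with 17.0% of all probes called, so the probes of Cyp4a10 disagreed on the call. In each of the 9 slides the HF-Q mice were above the t=0 mice for the brightest probe of all 3 genes, by medians of 2.64 for Cyp4a14, 1.37 for Cyp4a31 and 0.99 for Cyp4a10. Without HF-Q replicates 2, 4, 7 and 8 the log2 fold changes were 2.40, 1.16 and 0.83 and the 3 calls stood, and loess with scaling again called no member.

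HF against t=0 shares its mice with both other comparisons. Here the brightest probe of no Cyp4a gene was called. The log2 fold changes were -0.16 for Cyp4a14 (95% interval -0.99 to 0.67), -0.21 for Cyp4a31 (-0.72 to 0.30) and -0.35 for Cyp4a10 (-0.76 to 0.05), with limma adjusted p-values of 0.798, 0.559 and 0.187. The intervals leave room for a difference of either sign. Leaving out 1 mouse gave no call and moved the values, for Cyp4a14 from -0.41 (without t=0 mouse 6) to -0.01 (without t=0 mouse 5), for Cyp4a31 from -0.33 (without t=0 mouse 10) to -0.14 (without t=0 mouse 5) and for Cyp4a10 from -0.45 to -0.30. By median, 10 of 12 HF mice lay below the t=0 median for Cyp4a14 and for Cyp4a10, and 9 of 12 for Cyp4a31. Within slides the HF mice were lower in 6 of 9 for each of the 3 genes. The order of the Cyp4a levels was thus HF-Q above t=0 and HF, which did not differ beyond their spread.

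A different reading came from probe A_52_P340136 of Cyp4a10, whose entry in the files is not the RefSeq transcript. In the HF mice its log2 ratio ran from -0.84 over -0.53 to -0.28, and in the t=0 mice from -0.64 over -0.16 to 0.00. The groups overlapped, but all 12 HF mice lay below the t=0 median. Its log2 fold change in HF against t=0 was -0.31 (SE 0.07, limma adjusted p = 0.00215), in a comparison where 24.9% of probes were called. On this probe the levels ordered as HF below t=0 and HF-Q, whereas on A_52_P257774 they ordered as HF and t=0 below HF-Q.

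The Cyp4f genes moved in the comparison with t=0. In HF against t=0, 3 of the 8 members were called, all lower: Cyp4f13, Cyp4f14 and Cyp4f15. In that comparison 25.4% of all genes were called, 11.2% lower, so calls were common there. The median of the 8 members was -0.18 and that of all genes 0.02. All 8 members had a negative sign, but Cyp4b1 stood at -0.01 (SE 0.05) and turned sign in 2 of 24 fits without 1 mouse. The share of negative signs over all genes was not counted.

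Cyp4f15, one of the Cyp4f enzymes that act on leukotrienes and arachidonic acid, ran from -0.26 over 0.04 to 0.32 at t=0. The HF mice ran from -0.36 over -0.23 to 0.07 and the HF-Q mice from -0.23 over -0.06 to 0.21. The groups overlapped, and HF was lowest by median. HF was lower than t=0 by a log2 fold change of -0.23 (SE 0.06, limma adjusted p = 0.0076), with 11 of 12 HF mice below the t=0 median. HF-Q against t=0 gave -0.11 (SE 0.06, adjusted p = 0.221).

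Cyp4f13 ran from -0.23 over 0.01 to 0.14 at t=0, from -0.51 in mouse 1 over -0.16 to 0.02 in HF and from -0.37 over -0.08 to 0.02 in HF-Q. The log2 fold change in HF against t=0 was -0.17 (SE 0.05, limma adjusted p = 0.0129), with 11 of 12 HF mice below the t=0 median. In HF-Q against t=0 it was -0.11 (SE 0.05, adjusted p = 0.111), again with 11 of 12 below.

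Cyp4f14, a leukotriene B4 omega-hydroxylase with the brightest probe of the family, ran from -0.19 over 0.01 to 0.23 at t=0 and from -0.33 over -0.12 to 0.03 in HF. In HF-Q it ran from -1.06 in mouse 4 over -0.10 to 0.07. HF-Q mouse 4, the highest mouse for the 3 Cyp4a genes and one of the 3 arrays with narrow ratios, thus stood below all others for Cyp4f14, the next lowest HF-Q mouse being at -0.43. HF against t=0 gave -0.16 (SE 0.05, limma adjusted p = 0.0206). HF-Q against t=0 gave -0.20 (SE 0.09, adjusted p = 0.136), and -0.12 without HF-Q mouse 4. Without that mouse the sign of HF-Q against HF turned from -0.04 to 0.04, both uncalled.

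On the processed log2 scale, means at t=0, HF and HF-Q were 15.73 ± 0.14, 15.63 ± 0.20 and 15.58 ± 0.31 for Cyp4f14, 14.29 ± 0.17, 14.10 ± 0.20 and 14.20 ± 0.14 for Cyp4f15, and 11.74 ± 0.15, 11.60 ± 0.14 and 11.62 ± 0.11 for Cyp4f13 (SD, n = 12 each). None of the 3 genes was called from the authors' processed values, where the log2 fold changes of HF against t=0 were -0.19 for Cyp4f15, -0.14 for Cyp4f13 and -0.10 for Cyp4f14 (limma adjusted p = 0.0755, 0.104 and 0.316). Nor was any called after median centring in place of loess, which moved the median of all probes in this comparison to 0.12, with 88.6% of the calls higher against 50.5% with loess. Cyp4f14 changed sign with median centring, to 0.03. Cyp4f14 was also lost with slide as a block (adjusted p = 0.0717), with all 36 arrays in one fit (0.135) and with the Cy5 channel alone (0.101), and Cyp4f13 with the Cy5 channel alone (0.0596) and with Feature Extraction's processed signals (0.0507). Cyp4f15 was called in each of these 4 settings. Of the hepatocyte marker list, 3 of 7 measured genes were called lower in HF than t=0 and 4 were not called, with a list median of -0.04. The mean log2 ratio over the list was 0.32 (0.06 to 0.50 over mice) at t=0. It was 0.19 (0.05 to 0.33) in HF and 0.15 (-0.10 to 0.41) in HF-Q. The part of this list in the result was not tested.

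**Figure D3:**
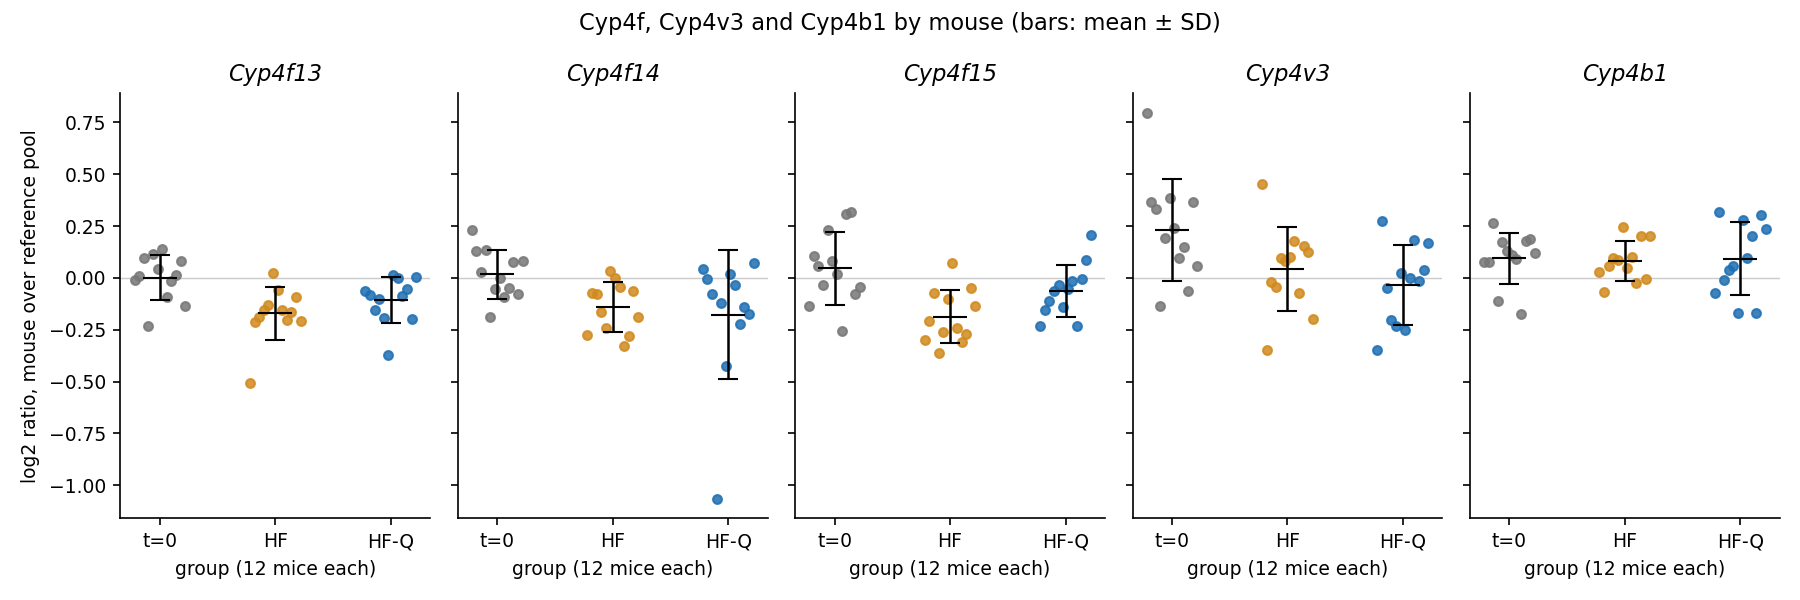
Log2 ratio of mouse over reference pool for Cyp4f13, Cyp4f14, Cyp4f15, Cyp4v3 and Cyp4b1 in the t=0, HF and HF-Q groups, 1 point per mouse, with bars for mean ± SD. The 3 Cyp4f panels show HF slightly below t=0, the lone low point of Cyp4f14 at -1.06 is HF-Q mouse 4, and Cyp4b1 is level across groups.

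The 3 genes called lower lie near each other on chromosome 17, and their upstream sequences were compared because they shared that call. Across the mice of a group no pair of them passed the adjustment with the loess ratios. The RefSeq promoter table (GRCm38.p6) held 5 of the 8 members, each from 250 bases before to 50 after a start site. None of the Cyp4a genes was in it. The letters GGATTGG, chosen after the sequences were seen, were found in Cyp4f13, Cyp4f15 and 3 of the 4 listed starts of Cyp4f14, and in no listed start of Cyp4v3 or Cyp4b1. They contain ATTGG, the reverse of the CCAAT box read on the other strand. On either strand GGATTGG was present in 4.72% of the 32851 promoters of this length. As the letters were picked from these sequences, their presence there was fixed beforehand, and this share does not test it. The stretches below run 5′ to 3′ on the strand of the gene, with GGATTGG in capitals. It begins 78 bases before the start site of Cyp4f13 (chr17:32947404-32947463, minus strand), 52 before that of Cyp4f14 (chr17:32917373-32917432, minus strand, its most upstream start) and 80 before that of Cyp4f15 (chr17:32685555-32685614, plus strand).
Cyp4f13: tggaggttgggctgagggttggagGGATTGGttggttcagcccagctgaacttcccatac
Cyp4f14: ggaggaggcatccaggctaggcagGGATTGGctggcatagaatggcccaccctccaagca
Cyp4f15: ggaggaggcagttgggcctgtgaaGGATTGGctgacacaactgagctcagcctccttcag
The half-site AGGTCA of nuclear receptors, searched on both strands, was in none of these 5 members' windows and in 16.3% of all promoters. With so few genes, and the Cyp4a genes not searched, this absence says nothing about the family. The direct repeat of AGGTCA with 1 base between the copies (DR1) was in none of these windows and in 0.0396% of all promoters.

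Cyp4v3, the mouse counterpart of the human CYP4V2 that is mutated in Bietti crystalline dystrophy, was the other member with a call against t=0. It ran from -0.14 over 0.21 to 0.80 in mouse 1 at t=0, from -0.35 over 0.09 to 0.45 in HF and from -0.35 over -0.01 to 0.27 in HF-Q. The group medians fell in that order, with much overlap. HF-Q was lower than t=0 by a log2 fold change of -0.27 (SE 0.09, limma adjusted p = 0.0317), with 11 of 12 HF-Q mice below the t=0 median. HF against t=0 gave -0.19 (95% interval -0.37 to -0.01, adjusted p = 0.115). The call was lost in 6 of 24 fits that left out 1 mouse (t=0 mouse 2, 6 or 11, or HF-Q mouse 1, 5 or 7, adjusted p 0.0512 to 0.0603) and in 11 of 17 other settings, among them a fit with slide as a block (0.0675). On the processed log2 scale Cyp4v3 averaged 14.53 ± 0.28, 14.40 ± 0.25 and 14.29 ± 0.20 (SD, n = 12 each).

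Cyp4b1, better known from lung, where it activates pro-toxins, had the most even group means. It ran from -0.17 over 0.12 to 0.27 at t=0, from -0.07 over 0.07 to 0.24 in HF and from -0.17 over 0.08 to 0.32 in HF-Q. It was called in none of the comparisons. The 95% intervals of its log2 fold change were -0.11 to 0.13 in HF-Q against HF, -0.11 to 0.08 in HF against t=0 and -0.13 to 0.12 in HF-Q against t=0. Processed log2 means were 12.25 ± 0.15, 12.29 ± 0.12 and 12.25 ± 0.16 (SD, n = 12 each).

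**Figure D4:**
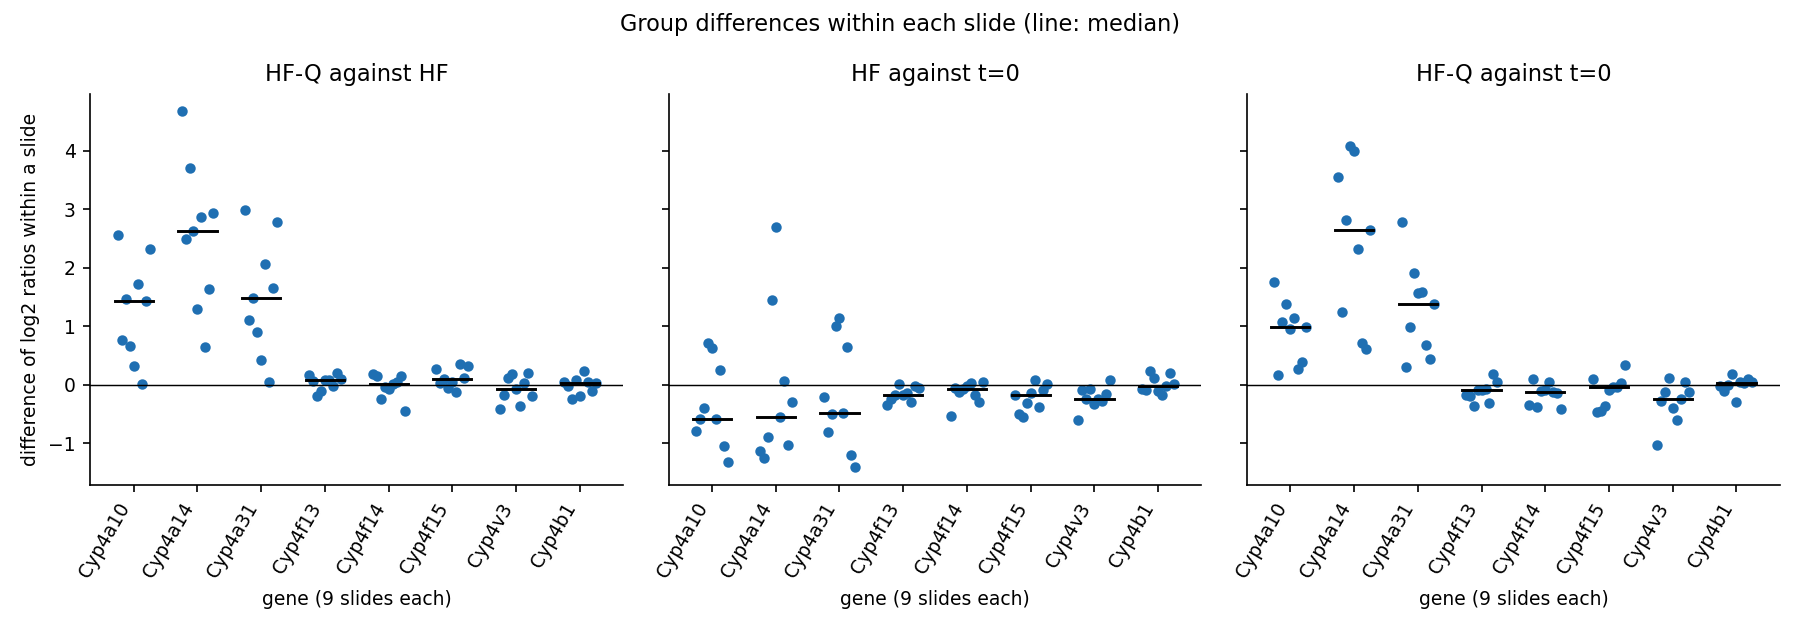
Difference of mean log2 ratios between the mice of 2 groups on the same slide, for the brightest probe of each gene, with 1 point per slide (9 slides) and a line at the median, in 3 comparisons (panels). The Cyp4a points lie above 0 on all 9 slides in both HF-Q panels and on both sides of 0 in HF against t=0, where Cyp4f13 is below 0 on 8 of 9 slides.

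Whether mice high for one member were high for another was asked within each group, over 28 pairs in 3 groups, 84 relations in all, with 100000 permutations each. After Benjamini-Hochberg adjustment 7 Pearson correlations over all 12 mice passed, all positive and all among the Cyp4a genes, and 2 of the 7 passed by Spearman's rho as well. Cyp4a10 and Cyp4a31 had r = 0.96 at t=0, 0.97 in HF and 0.99 in HF-Q (n = 12 each, permutation p = 5e-05, 2e-05 and 1e-05, the last the smallest the permutations can give, adjusted p = 0.0014, 0.00084 and 0.00084). Spearman's rho was 0.92, 0.97 and 0.81 (permutation p = 0.00012, 2e-05 and 0.00211, adjusted p = 0.00504, 0.00168 and 0.0517). The probe of Cyp4a31 lists the Cyp4a10 transcript too, so the 2 measures may share signal. Without the 2 mice farthest from the Cyp4a10 median r was 0.84, 0.95 and 0.95 (n = 10, adjusted permutation p = 0.0506, 0.0042 and 0.0227), so the call at t=0 was lost without mice 10 and 6.

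Cyp4a10 and Cyp4a14 had r = 0.88 at t=0, 0.74 in HF and 0.87 in HF-Q (n = 12 each, permutation p = 0.00028, 0.00632 and 0.00061, adjusted p = 0.00588, 0.0664 and 0.00876). Their rho was 0.79, 0.75 and 0.73 (permutation p = 0.00331, 0.00743 and 0.00923, adjusted p = 0.0556, 0.078 and 0.0861). Without the 2 farthest mice r fell to 0.72, 0.44 and 0.57, with adjusted permutation p-values of 0.308, 0.931 and 0.525. The calls at t=0 and in HF-Q were lost without those mice, which were mice 10 and 6 at t=0 and 4 and 5 in HF-Q (unadjusted permutation p = 0.0221 and 0.0687 without them, n = 10). Dropping the mice farthest on the first gene narrows its range and cuts n to 10. A lost call therefore cannot show that a relation rested on the dropped mice. In HF, where mice 4 and 10 were left out, the pair was not called with or without them.

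Cyp4a14 and Cyp4a31 had r = 0.84, 0.71 and 0.87 in t=0, HF and HF-Q (n = 12 each, permutation p = 0.00073, 0.00796 and 0.00067, adjusted p = 0.00876, 0.0743 and 0.00876). Their rho was 0.76, 0.76 and 0.80 (permutation p = 0.00641, 0.00559 and 0.00246, adjusted p = 0.0769, 0.0769 and 0.0517). Without the 2 farthest mice r was 0.58, 0.86 and 0.58 (n = 10, adjusted permutation p = 0.595, 0.0313 and 0.525). The calls at t=0 and in HF-Q were thus lost, with the same limit as above, and the pair in HF passed only without mice 4 and 2. No pair with a member outside the Cyp4a genes passed the adjustment over all 12 mice in any group. There were 2 exceptions in other settings. Without HF-Q mice 4 and 5, Cyp4a14 and Cyp4f15 were negatively related in HF-Q (r = -0.88, n = 10, adjusted permutation p = 0.0227), against r = -0.48 and rho = -0.66 over all 12 (permutation p = 0.117 and 0.0235, adjusted p = 0.545 and 0.165). With the authors' processed values Cyp4f14 and Cyp4f15 were positively related in HF (r = 0.87, n = 12, adjusted permutation p = 0.0021), against r = 0.71 and rho = 0.72 with the loess ratios (permutation p = 0.0105 and 0.0104, adjusted p = 0.0881 and 0.0875).

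**Figure D5:**
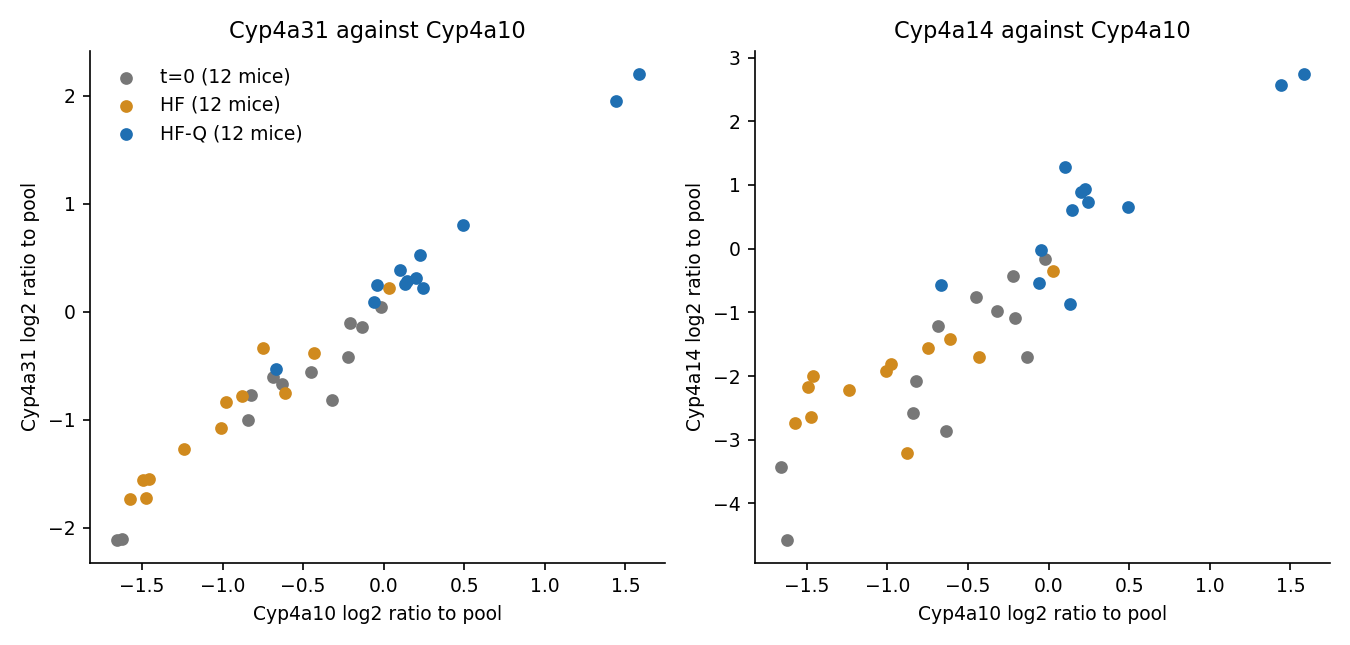
Log2 ratio to the pool of Cyp4a31 (left) and Cyp4a14 (right) against that of Cyp4a10, 1 point per mouse, coloured by group. Cyp4a31 follows Cyp4a10 closely (r of 0.96 to 0.99 within groups), Cyp4a14 less so (0.74 to 0.88), and HF-Q mice 4 and 5 form the upper right pair in both panels.

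As a description, the deviations of each mouse from its group mean were set against those of 11455 other genes over all 36 mice, which share the reference pool. For all 3 Cyp4a genes the gene most alike outside the family was Retsat, retinol saturase, with r of 0.78 for Cyp4a10, 0.79 for Cyp4a14 and 0.74 for Cyp4a31. The median r over all genes was 0.02 for each. Next came Ech1 (0.65) and Eci1 (0.62), enzymes of unsaturated fatty acid oxidation, for Cyp4a10, Vnn1 (0.56), a pantetheinase, and Fam160a2 (0.55) for Cyp4a14, and Eci1 (0.65) and Vnn1 (0.61) for Cyp4a31. Retsat itself was higher in HF-Q than HF by 0.35 (SE 0.09, limma adjusted p = 0.0373) and than t=0 by 0.37 (SE 0.11, adjusted p = 0.0202), and gave 0.02 in HF against t=0.

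The Cyp4f genes had other partners. Cyp4f14 was most like Cyb5b (0.77), Nqo2 (0.74) and Pygl (0.74), and without HF-Q mouse 4 these values were 0.44, 0.37 and 0.31. Cyp4f13 was most like Acp5 (0.73), Ddb1 (0.73) and Pdcd2l (0.73), and Cyp4f15 like Lmf1 (0.68), Hdac3 (0.63) and Mug1 (0.61). Cyp4v3 was most like Cfhr2 (0.72), Mup5 (0.71) and Cfi (0.70), liver-secreted proteins. Cyp4b1 was most like Psd3 (0.67), Ppargc1a (0.62), a coactivator of PPAR-alpha, and Slc38a2 (0.61).

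Of 12 other family 4 genes listed, 5 were on the array and 3 were tested. Cyp4f18 was lower than t=0 in HF (-0.32, SE 0.07, limma adjusted p = 0.000965) and in HF-Q (-0.19, SE 0.05, adjusted p = 0.00629). Cyp4f16 was called in no comparison. Cyp4a12a, a male-biased omega-hydroxylase, gave -0.06 in HF-Q against HF on its brightest probe A_52_P44914 (adjusted p = 0.857) and 0.42 on A_51_P433360 (adjusted p = 0.0236). Each of these probes lists 2 RefSeq transcripts, and the sign for Cyp4a12a depended on the probe.

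The electron donors and the next steps of omega-oxidation were counted from lists. Over all genes, 3.29% were called in HF-Q against HF, 25.4% in HF against t=0 and 17.3% in HF-Q against t=0, and the counts below stand beside these shares. Of 4 electron donors 1 was called in HF-Q against HF, Por, the P450 oxidoreductase, at 0.97 (SE 0.13, limma adjusted p = 0.000263). Por was lower in HF than t=0 by -0.64 (adjusted p = 0.00483) and gave 0.33 in HF-Q against t=0 (adjusted p = 0.181). Cyb5b, a cytochrome b5, was higher in HF than t=0 by 0.25 (adjusted p = 0.000412).

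Of 6 alcohol and aldehyde dehydrogenases tested 1 was called in HF-Q against HF, Aldh3a2, the fatty aldehyde dehydrogenase, at 0.39 (SE 0.08, limma adjusted p = 0.00368). Against t=0, Aldh3a2 was higher in HF-Q by 0.57 (adjusted p = 0.000309), with Aldh3b1 at 0.33 and Adh4 at 0.22 (adjusted p = 0.00712 and 0.0469). In HF against t=0 Aldh3b1 alone was called, at 0.29 (adjusted p = 0.0228).

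Of 14 genes tested that handle dicarboxylic acids in peroxisomes, 3 were called in HF-Q against HF, all higher, with a list median of 0.25, where 2.03% of all genes were called higher. They were Acot3 at 0.67, Acot4 at 0.64, both peroxisomal acyl-CoA thioesterases, and the thiolase Acaa1b at 0.26 (limma adjusted p = 0.0015, 0.00014 and 0.0393). The same 3 were called higher in HF-Q against t=0, at 0.41, 0.51 and 0.45, where 9.07% of all genes were called higher, and none of the 14 was called in HF against t=0, where 25.4% of all genes were.

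Of 9 nuclear receptors and cofactors tested, Nr1i3, which encodes Car, was the 1 called in HF-Q against HF, at 0.48 (SE 0.07, limma adjusted p = 0.000328). Ppara, the receptor itself, gave 0.06 in HF-Q against HF, -0.09 in HF against t=0 and -0.03 in HF-Q against t=0, with adjusted p-values of 0.82, 0.553 and 0.891. In HF against t=0, Nr1i3 (-0.30) and Ppargc1a (-0.42) were lower (adjusted p = 0.0027 and 0.0284). In HF-Q against t=0, Pparg (0.33) and Hnf4a (0.19) were higher and Ncor1 (-0.16) was lower (adjusted p = 0.00545, 0.0482 and 0.0384).

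Of 10 other PPAR-alpha targets, 1 was called in HF-Q against HF, Vnn1 at 0.66 (SE 0.14, limma adjusted p = 0.00895), and the list median was 0.18. None was called in HF-Q against t=0. Between HF and t=0, Cpt1a (-0.41), Angptl4 (-0.68) and Creb3l3 (-0.19) were lower and Pdk4 (0.46) and Fgf21 (1.28) were higher (adjusted p from 5.97e-05 to 0.0211). Of 3 leukotriene and epoxide enzymes tested, Lta4h, which makes leukotriene B4, was lower in HF (-0.29) and HF-Q (-0.21) than at t=0 (adjusted p = 0.00213 and 0.022), and none was called in HF-Q against HF.

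Markers of other liver cells were read beside these results. The mean log2 ratio of the cholangiocyte list (4 of 5 genes measured) was highest in HF, at 0.21 (-0.10 to 0.66 over mice) against -0.14 (-0.47 to 0.23) at t=0 and -0.12 (-0.53 to 0.11) in HF-Q, with 3 of 4 genes called higher in HF than t=0 and 1 called lower in HF-Q than HF. That of the Kupffer cell list (6 of 6) was -0.31 (-1.13 to 0.90) at t=0, 0.02 (-0.40 to 0.70) in HF and 0.04 (-0.39 to 0.43) in HF-Q, with no gene called and all 6 positive against t=0 (list medians 0.29 in HF and 0.26 in HF-Q). Of 5 erythroid markers 2 were measured. Hba-a1, a globin, was higher than t=0 in HF (0.85, adjusted p = 0.00103) and HF-Q (1.14, adjusted p = 9.65e-07), while Alas2 was lower in HF-Q (-0.26, adjusted p = 0.00903). Of 6 endothelial markers, Pecam1 was lower in HF than t=0 (-0.26, adjusted p = 0.0023) and higher in HF-Q than HF (0.23, adjusted p = 0.00899), and Cdh5 was higher in HF than t=0 (0.17, adjusted p = 0.0217). No stellate cell (6 measured), lymphocyte or adipocyte marker was called. Of the hepatocyte list, Cyp2e1 was higher in HF-Q than HF (0.34, adjusted p = 0.0242) and lower in HF than t=0 (-0.44, adjusted p = 0.000443). The other 6 were uncalled in HF-Q against HF, from -0.17 to -0.03, with a list median of -0.11. In HF-Q against t=0 the list ran from -0.49 to -0.02. There Cps1 (-0.49) and Ttr (-0.33) were called lower (limma adjusted p = 0.000403 and 0.0129). The part of the cell markers in the Cyp4 results was not tested.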

How the data were processed

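Liver RNA of 36 mice (C57BL/6J per the labels, the substrain C57BL/6JOlaHsd per the methods) was hybridised on 36 Agilent 2-colour arrays on 9 slides, all scanned on the same day. The scanner files deposited by the authors hold spot and background intensities per channel from Feature Extraction (10.5.1.1 per the labels). A second table, processed by the authors, gives a log2 value per kept probe and array. Set against the scanner files, its values equal the log2 ratio plus each spot's mean Cy3 level, shifted per array (median absolute difference 0.0192, lowest r 0.9999 over arrays, all array medians 8.961). Per the methods, the authors kept expressed spots, took logs and normalized Cy5 against Cy3. It was joined to probes by feature number.

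Median intensities were corrected by normexp (offset 50), control spots and outlier-flagged spots (113 to 217 per array) had no weight, ratios were loess-normalized per array, and spots of a probe averaged. Probes whose mean Cy5 and mean Cy3 each exceeded 2 times background over the 24 arrays compared were tested with limma (lmFit, eBayes, two-sided, adjusted p under 0.05). A gene was read at its brightest expressed probe. Symbols came from RefSeq: 24375 probes matched by accession, 8727 by name and 8072 had none. Named are all members, for each the 3 most alike genes, and called genes of the lists, 1 of which is not reported here. Members and lists were chosen with earlier results of these data known. The other Cyp4a12a probe and GGATTGG were added after values or sequences were seen.

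Group and number came from the sample descriptions. Same-numbered mice did not deviate together (median r of deviations -0.03, 0.05 and 0.01 in the 3 comparisons, over 0.1 in 3, 4 and 1 of 12 pairs), so the numbers were not used to pair mice. No 2 arrays were duplicates (highest r between arrays 0.836). Alternatives changed background correction, normalization, filter, probe, arrays, blocks, test and source of values. Fits without HF-Q replicates 4, 7 and 8 were added after the data were seen. The test was checked on simulated data. The number of arrays limits the precision. Software was R 4.3.3, limma 3.58.1, data.table (version 1.17.8), Python 3.11.15, NumPy 2.4.6, SciPy 1.17.1, pandas 2.3.3 and Matplotlib 3.10.9.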

Additional observations from a re-analysis of the deposited data

How the results depend on the processing

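The 3 Cyp4a calls in HF-Q against HF held in 17 of 18 alternatives and in all 24 fits that left out 1 mouse (3 members called in each). Loess with scaling called 0, with log2 fold changes of 3.06 for Cyp4a14, 2.41 for Cyp4a31 and 1.77 for Cyp4a10 (adjusted p = 0.412, 0.376 and 0.381). It called 0 members in HF-Q against t=0 too, where the fits without 1 mouse called 3 to 5. In HF against t=0 they called 3 to 4, while median centring called 0, the authors' processed values 0 and the quantile-normalized Cy5 channel 1, Cyp4f15. Without the 2 farthest mice 4 of the 84 correlations passed, 3 among the Cyp4a genes and the negative Cyp4a14 and Cyp4f15 pair in HF-Q, and with the authors' values 8, the 7 Cyp4a relations and Cyp4f14 with Cyp4f15 in HF. With a replicate block 3, 3 and 3 members were called, Cyp4v3 being lost in HF-Q against t=0 (adjusted p = 0.0546), and no other member's call changed.

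Uncalled members changed sign, and so did Cyp4f14 in HF against t=0, where it was called in the main fit. In HF-Q against HF, Cyp4b1 gave -0.0076 without background correction, -0.0201 with processed signals, -0.0612 with median centring, -0.0536 with Cy5 alone, -0.0408 with the authors' values, -0.0196 with a slide block, -0.0034 without HF-Q replicates 4, 7 and 8, -0.0335 also without 2, and -0.0073 scaled without 4, 7 and 8 (-0.0086 to 0.0358 without 1 mouse). Cyp4f14 gave 0.0055 with Cy5 alone, 0.0031 with array weights, and 0.0251, 0.0112 and 0.0166 in those 3 fits without arrays (-0.0585 to 0.0449 without 1 mouse), and Cyp4f13 -0.007 with median centring. In HF against t=0, Cyp4b1 gave 0.1576 with median centring, 0.0253 with Cy5 alone, 0.0345 with the authors' values and 0.0159 with a slide block (-0.0369 to 0.003 without 1 mouse), and median centring gave 0.016 for Cyp4a14 and 0.0275 for Cyp4f14. In HF-Q against t=0, Cyp4b1 gave 0.0963 with median centring, 0.1326 with scaling, 0.0096 with a slide block and 0.0051 with a position block (-0.025 to 0.0232 without 1 mouse), and median centring gave 0.0212 for Cyp4f15.

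Calls over all probes in HF-Q against HF were 626, against 69 with median centring, 81 with scaling, 193 with Cy5 alone, 266 with a slide block, 1000 with array weights, 312 without HF-Q replicates 4, 7 and 8, 251 also without 2, and 342 scaled without 4, 7 and 8. In HF-Q against t=0 they were 3118, against 347, 562 and 1180 with the first 3 of these and 2043 without HF-Q replicates 2, 4, 7 and 8. In HF against t=0 they were 4426, against 2796 with Cy5 alone. The share of higher calls was 66.6% in HF-Q against HF (53.2% with processed signals, 26.1% with median centring) and 49.4% in HF-Q against t=0 (34.6% and 63.7%, and 38.6% with Cy5 alone). The cause of these changes was not tested. Scaling stretched 3 HF-Q arrays, and the part of that in the lost calls was not tested apart from leaving out those mice. Signal over background limits A_52_P218449 and A_52_P988832, at 2.78 and 3.00 times.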
